A study of Mus musculus with 6 samples.

Results

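The genes described here are p21 (Cdkn1a) and 9 other classical targets of the tumour suppressor p53, namely Mdm2, Ccng1, Phlda3, Gadd45a, Btg2, Zmat3, Plk2, Sesn1 and Trp53inp1. They were chosen by gene symbol, and all 10 were among the 12656 genes of the deposited expression table. The table comes from cultured 4T1 cells, a mouse mammary tumour line of the triple-negative class. LP-184, a small molecule that damages DNA, was given for 48 h to the cells of 3 libraries, and the solvent DMSO to those of the other 3. Both groups carry the same labels of line and cell type, and the labels name no genetic change between them. The labels state no dose, and no time for the DMSO cells. They do not say that replicates were grown separately, so the p-values rest on a spread between libraries that could be technical. Polyadenylated RNA was sequenced. A level is given as CPM, the reads of a gene per 1000000 of the scaled read total of its library, or as its log2.

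p53 is a transcription factor that accumulates when DNA is damaged, binds a pair of short DNA elements in its target genes and raises their transcription. Its targets stop the cell cycle, repair DNA, limit growth signalling or start cell death, and one of them, Mdm2, removes p53 again. Several targets are also raised without p53. Cdkn1a, Gadd45a, Btg2 and Plk2 are known from responses to growth factors, nutrient or endoplasmic reticulum stress and other signals, and they are called stress-shared here. Mdm2, Ccng1, Phlda3, Zmat3, Sesn1 and Trp53inp1 are known more as p53 targets and are called chiefly p53, although Sesn1 also answers to FOXO factors and Mdm2 to growth factor signals. 4T1 cells are generally described as lacking functional p53, and p53 protein was not measured in these libraries.

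The promoters of 4 of these genes are shown because they hold the elements marked here in capitals. Each run covers the 250 bases before and 50 bases after a RefSeq start site on GRCm38.p6, in the direction of the gene. Capitals mark a p53 consensus element (20 bases in a pair of abutting decamers, at most 1 letter off) in Cdkn1a and Ccng1, and the cyclic AMP response element TGACGTCA, a sequence bound by ATF and CREB factors, in Plk2 and Btg2. The Cdkn1a run is at chr17:29090729-29091028 on the forward strand, at the upstream of 2 annotated start sites. The Ccng1 run is at chr11:40755237-40755536 on the reverse strand, the Plk2 run at chr13:110394794-110395093 on the forward strand, and the Btg2 run at chr1:134079106-134079405 on the reverse strand.
Cdkn1a: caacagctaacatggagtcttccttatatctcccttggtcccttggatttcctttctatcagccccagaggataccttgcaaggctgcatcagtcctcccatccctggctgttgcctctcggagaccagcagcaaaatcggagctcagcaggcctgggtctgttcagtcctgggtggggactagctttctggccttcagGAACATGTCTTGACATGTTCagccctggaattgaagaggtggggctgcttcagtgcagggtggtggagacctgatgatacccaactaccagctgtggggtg
Ccng1: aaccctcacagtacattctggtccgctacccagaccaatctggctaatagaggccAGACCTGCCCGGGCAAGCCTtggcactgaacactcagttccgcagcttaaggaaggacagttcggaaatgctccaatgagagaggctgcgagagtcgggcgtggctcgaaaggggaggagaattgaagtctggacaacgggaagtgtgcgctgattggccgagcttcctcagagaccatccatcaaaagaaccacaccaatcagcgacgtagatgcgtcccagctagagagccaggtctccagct
Plk2: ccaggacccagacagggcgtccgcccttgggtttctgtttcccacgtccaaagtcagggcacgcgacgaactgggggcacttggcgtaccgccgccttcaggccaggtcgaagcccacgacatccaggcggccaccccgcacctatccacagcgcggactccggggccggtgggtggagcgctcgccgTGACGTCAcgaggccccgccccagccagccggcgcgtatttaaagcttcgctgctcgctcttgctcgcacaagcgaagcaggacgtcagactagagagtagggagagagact
Btg2: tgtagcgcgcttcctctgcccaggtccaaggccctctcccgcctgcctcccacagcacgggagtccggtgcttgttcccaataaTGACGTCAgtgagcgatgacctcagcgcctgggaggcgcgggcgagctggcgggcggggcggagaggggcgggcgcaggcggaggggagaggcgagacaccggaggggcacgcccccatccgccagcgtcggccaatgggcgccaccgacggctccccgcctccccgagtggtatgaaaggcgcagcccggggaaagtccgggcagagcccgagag

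Across the 6 libraries, 18864368 to 22471753 reads fell on the genes of the table. By limma on the log2 CPM values with Benjamini-Hochberg adjustment over 11931 tested genes, LP-184 libraries had higher levels for 38.3% of genes and lower ones for 40.0% at an adjusted p under 0.05, and the groups did not overlap for 79.1% of genes. A call alone therefore sets no gene apart in this comparison, and the size of a change is given beside it. Changes followed gene length: genes spanning over 100 kb had a median log2 fold change of -1.41, and those under 10 kb one of 0.24. All 7 epithelial markers were in the table, 5 higher and 2 lower (log2 fold changes of 0.74 for Cldn3, 0.38 for Cdh1 and -0.47 for Krt8). With the trend of change on length removed 2 were higher and 2 lower (background 35.3% and 38.9%). Their summed levels were 3715 to 3743 CPM in the LP-184 libraries and 3644 to 3666 CPM in the DMSO libraries. Of 7 haematopoietic markers, Cd68, Lyz2 and Cd79a were in the table, with sums of 29.7 to 35.9 CPM in the LP-184 libraries and 11.3 to 12.3 CPM in the DMSO libraries. Cd68 made up most of both sums, Lyz2 had 0 reads in every LP-184 library against 24 to 42 in the DMSO libraries, Cd79a had 16 to 24 reads in the LP-184 libraries against 0 to 2 in the DMSO libraries, and Ptprc was not analysed here. Of 11 fibroblast and endothelial markers, Pdgfra alone was in the table, at 9.19 ± 1.11 CPM in LP-184 libraries and 6.85 ± 0.67 CPM in DMSO libraries (SD, n = 3 each). The part of these markers in the results below was not tested.

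The 10 p53 targets did not move together. All 10 passed the filter on low values, 7 were higher with LP-184 (background 38.3% of tested genes), 2 were lower (background 40.0%) and 1 did not pass the test. The 9 that passed compare with a background of 78.3% in either direction. The 4 stress-shared genes Cdkn1a, Plk2, Gadd45a and Btg2 rose by log2 fold changes of 0.99 to 3.15, while the 6 chiefly p53 genes ranged from a fall of Ccng1 by 0.79 to a value of 0.62 for Trp53inp1. The median log2 fold change was 0.56 over the 10 genes, 1.47 over the 4 and 0.21 over the 6, and it was -0.01 over all tested genes. Cdkn1a, Plk2 and Gadd45a were higher by 2-fold or more, against 8.08% of tested genes. For 9 of the 10 genes no LP-184 library overlapped the DMSO range, against 79.1% of tested genes.

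**Figure D1:**
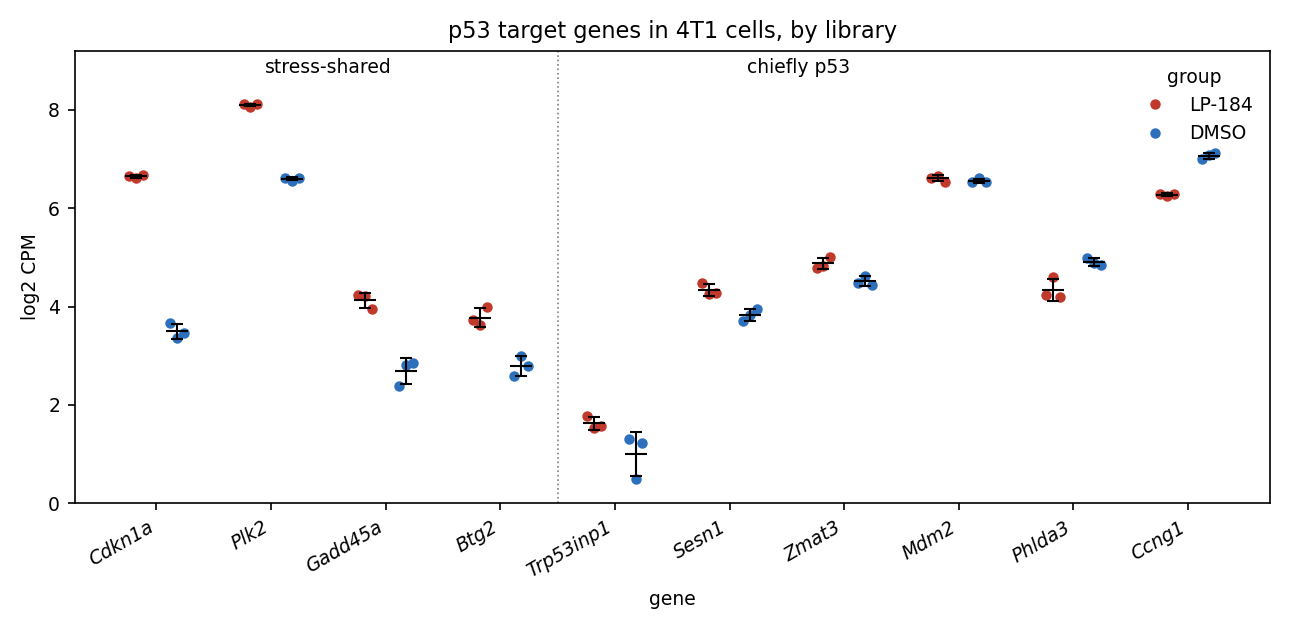
Level of each of the 10 genes in log2 CPM (vertical axis) in the 3 LP-184 libraries (red, left) and the 3 DMSO libraries (blue, right), with the mean and SD of each group as black bars. The stress-shared genes stand left of the dotted line and the chiefly p53 genes right of it, and the groups overlap for Mdm2 alone.

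Set against each other within a library, the stress-shared targets rose relative to the chiefly p53 ones. The mean log2 CPM of the 4 stress-shared genes minus that of the 6 chiefly p53 genes was 0.99, 0.94 and 1.03 in LP-184 replicates 1 to 3, against -0.85, -0.65 and -0.76 in DMSO replicates 1 to 3. The difference was thus positive in each treated library and negative in each control, in CPM with no allowance for exon length. Its shift, which does not depend on that length, was 1.74 log2 units. This is a description with no test, since the split into 4 and 6 genes was made with these results known.

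Cdkn1a encodes p21, the inhibitor of cyclin-dependent kinases that carries the p53-driven arrest of the cell cycle. It had 101, 97.6 and 102 CPM in LP-184 replicates 1 to 3, against 12.6, 10.2 and 10.9 CPM in DMSO replicates 1 to 3. All LP-184 libraries lay far above all DMSO libraries, and both groups were tight. The rise was 8.87-fold, a log2 fold change of 3.15 with a 95% interval of 3.01 to 3.29 (n = 3 each, limma adjusted p = 1.5e-29). Of the 11931 tested genes, 57 rose more. The gene (ENSMUSG00000023067.14, chromosome 17, 29090976 to 29100727 in GRCm38, forward strand) spans 9.75 kb. Its exons overlap those of AC167363.2 on the opposite strand by 273 bases. With the strand setting of the counting not given in the sources used here, reads of that transcript cannot be told apart from those of Cdkn1a.

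Plk2 encodes a polo-like kinase first described as inducible by serum, and it is a p53 target active at the G1 phase and in centriole duplication. It was the most abundant of the 10 genes after LP-184, with 277, 267 and 277 CPM in the LP-184 libraries, against 98.4, 94.3 and 97.4 CPM in the DMSO libraries. The values within each group differed little and the groups stood well apart. The rise was 2.83-fold, and its 95% interval on the log2 scale was 1.44 to 1.56 (n = 3 each, limma adjusted p = 4.2e-30). A larger rise was found in 370 tested genes. Plk2 lies on chromosome 13 at 110395046 to 110400844, forward strand.

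Gadd45a encodes a small stress sensor that binds PCNA, p21 and the kinase MEKK4. It had 18.7, 18.3 and 15.4 CPM in the LP-184 libraries, against 5.10, 6.94 and 7.12 CPM in the DMSO libraries. LP-184 replicate 3 and DMSO replicate 1 were the low libraries of their groups, and the groups did not overlap. The log2 fold change was 1.45, with a 95% interval of 1.19 to 1.71 (n = 3 each, limma adjusted p = 1.8e-12). Exons of Gadd45a overlap the noncoding E230016M11Rik on the opposite strand by 337 bases, so its reads carry the same uncertainty of strand. The gene is on chromosome 6, 67035096 to 67037457, reverse strand.

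Btg2 encodes an antiproliferative adaptor of mRNA deadenylation that is also an immediate early gene. It had 13.1, 12.2 and 15.7 CPM in the LP-184 libraries, against 5.90, 7.83 and 6.85 CPM in the DMSO libraries. The lowest treated library stood clear of the highest control. The log2 fold change was 0.99, with a 95% interval of 0.72 to 1.25 (n = 3 each, limma adjusted p = 1.8e-08). Btg2 is on chromosome 1, 134075170 to 134079120, reverse strand.

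Among the chiefly p53 genes, the feedback gene Mdm2 and the cyclin gene Ccng1 were the most abundant in DMSO cells in CPM. Mdm2 encodes the ubiquitin ligase that marks p53 for destruction, and its induction is a common readout of active p53. It had 97.7, 101 and 93.0 CPM in the LP-184 libraries, against 92.0, 97.5 and 91.9 CPM in the DMSO libraries. The groups overlapped. The log2 fold change was 0.05 with a 95% interval of -0.03 to 0.13 (n = 3 each, limma adjusted p = 0.24). Over the alternatives the limma adjusted p lay between 0.0021 and 0.99: median centring gave a value of 0.14 (limma adjusted p = 0.0021), and removal of the length trend gave -0.14 (limma adjusted p = 0.0044). Mdm2 is on chromosome 10, 117688875 to 117710758, reverse strand.

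Ccng1 encodes cyclin G1, which recruits the phosphatase PP2A to Mdm2 and is among the most regularly induced p53 targets in mice. It fell with LP-184, with 78.5, 75.5 and 77.8 CPM in the LP-184 libraries, against 127, 134 and 139 CPM in the DMSO libraries. No treated library came near a control. The log2 fold change was -0.79, with a 95% interval of -0.87 to -0.71 (n = 3 each, limma adjusted p = 2e-19). Ccng1 is on chromosome 11, 40748552 to 40755311, reverse strand, and spans 6.76 kb, so it is not one of the long genes.

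Phlda3 encodes a pleckstrin homology domain protein that keeps the kinase AKT from the membrane. It had 18.6, 24.0 and 18.2 CPM in the LP-184 libraries, against 31.8, 29.5 and 28.6 CPM in the DMSO libraries. LP-184 replicate 2 was the closest of the treated libraries to the controls, without reaching them. The log2 fold change was -0.57, with a 95% interval of -0.75 to -0.40 (n = 3 each, limma adjusted p = 2.6e-07). Phlda3, on chromosome 1 at 135766119 to 135769136, forward strand, spans 3.02 kb.

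Sesn1, Zmat3 and Trp53inp1 rose by less than 2-fold. Sesn1 encodes sestrin 1, an inhibitor of mTORC1 signalling, and had 22.1, 18.9 and 19.3 CPM in the LP-184 libraries, against 12.9, 14.2 and 15.4 CPM in the DMSO libraries. Its log2 fold change was 0.50 ± 0.09 (SE, n = 3 each, limma adjusted p = 1.2e-05). The treated libraries lay above the controls by a margin similar to the spread within each group. Zmat3, a zinc finger protein that binds RNA and controls splicing and mRNA stability, had 27.5, 28.4 and 32.1 CPM in the LP-184 libraries, against 22.3, 24.6 and 21.6 CPM in the DMSO libraries, a log2 fold change of 0.36 ± 0.08 (SE, n = 3 each, limma adjusted p = 6.8e-05). The lowest LP-184 library still lay above the highest DMSO library. Trp53inp1, a nuclear and autophagy protein that promotes p53-dependent death, was the least abundant, with 3.33, 2.78 and 2.88 CPM in the LP-184 libraries, against 2.36, 1.30 and 2.25 CPM in the DMSO libraries. DMSO replicate 2 was its low library, with 28 reads, and its log2 fold change of 0.62 ± 0.24 (SE, n = 3 each, limma adjusted p = 0.019) did not pass without that library (0.36, limma adjusted p = 0.17) or without LP-184 replicate 1 (0.54, limma adjusted p = 0.081). In bulk RNA, a change in the share of cells that express a gene and a change per cell cannot be told apart, here and for the other genes.

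Allowing for gene span moved some of these values. The 10 genes span 2.36 to 98.5 kb, with a median of 8.26 kb against 21.8 kb for all tested genes with an annotated span. Sesn1, at 98.5 kb, is the longest of them, and the fitted trend for genes of that span was a log2 fold change of -0.82. A RefSeq start site of Sesn1 also lies well inside that span (window at chr10:41887189-41887488), so transcripts from it are shorter. Which start site was used was not tested. With the loess trend of fold change on span removed, Sesn1 was at 1.32 when taken at its full span (limma adjusted p = 5.2e-12). Trp53inp1 was then at 0.35 and no longer passed (limma adjusted p = 0.21), Ccng1 was at -1.17 and Phlda3 at -0.85. Cdkn1a, Plk2, Gadd45a and Btg2 were at 2.81, 1.13, 1.18 and 0.69 in that order. By that measure 6 of the 10 genes were higher (background 35.3% of 11462 genes) and 3 lower (background 38.9%), Mdm2 being the third.

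**Figure D2:**
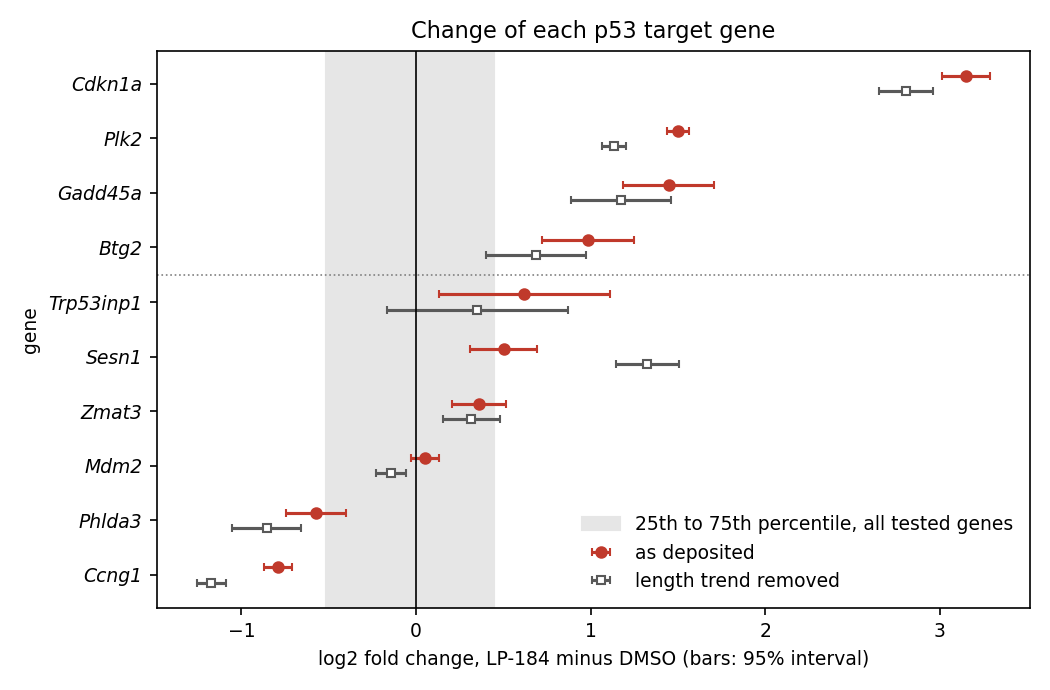
Log2 fold change of each gene, LP-184 minus DMSO (horizontal axis), with 95% intervals, on the deposited values (red circles) and with the trend of change on gene span removed (open squares). The grey band runs from the 25th to the 75th percentile of all tested genes on the deposited values (-0.51 to 0.44). The points of Cdkn1a, Plk2, Gadd45a and Btg2, above the dotted line, lie right of the band for both sets of values. The point of Sesn1, below the dotted line, does so too (0.50 and 1.32). The 95% interval of Btg2 with the trend removed (0.40 to 0.97) reaches into the band.

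**Figure D3:**
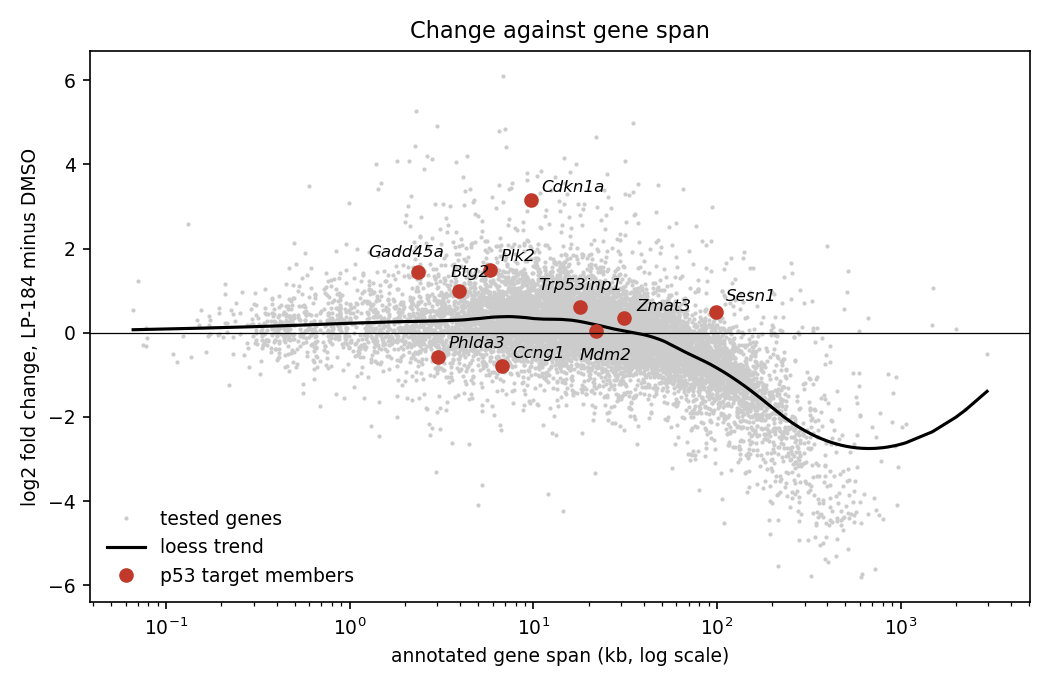
Log2 fold change, LP-184 minus DMSO (vertical axis), against annotated gene span in kb (horizontal log axis) for tested genes (grey), with the loess trend (line) and the 10 p53 targets (red). Cdkn1a stands highest of the 10 at a span of 9.75 kb, and Ccng1 lies lowest at a similar span of 6.76 kb.

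Levels between genes were compared per kb of annotated exon. In LP-184 cells the order was Plk2 (60.9 ± 1.22 CPM per kb), Cdkn1a (28.2 ± 0.61), Ccng1 (22.0 ± 0.45), Mdm2 (19.1 ± 0.81), Phlda3 (13.0 ± 2.08), Gadd45a (9.89 ± 1.04), Sesn1 (5.05 ± 0.43), Btg2 (4.99 ± 0.67), Zmat3 (2.57 ± 0.21) and Trp53inp1 (0.46 ± 0.05; SD, n = 3). In DMSO cells Ccng1 led (38.1 ± 1.75 CPM per kb), followed by Plk2 (21.5 ± 0.47), Phlda3 (19.2 ± 1.05), Mdm2 (18.5 ± 0.63), Gadd45a (3.62 ± 0.64), Sesn1 (3.55 ± 0.32), Cdkn1a (3.16 ± 0.35), Btg2 (2.50 ± 0.35), Zmat3 (2.00 ± 0.14) and Trp53inp1 (0.30 ± 0.09; SD, n = 3). Neighbours in the order whose SDs overlapped were Phlda3 and Gadd45a, and Sesn1 and Btg2, in LP-184 cells, and in DMSO cells Phlda3 and Mdm2, Gadd45a and Sesn1, Sesn1 and Cdkn1a, and Cdkn1a and Btg2. Cdkn1a thus stood second of the 10 with LP-184 and seventh with DMSO. Relative to Mdm2, its log2 CPM was higher by 3.10 in LP-184 libraries than in DMSO libraries (exact permutation test, two-sided, p = 0.1, the smallest that 3 against 3 libraries can give). Since Cdkn1a alone separated the groups widely and Mdm2 changed little, the test could give no other value.

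In the authors' deposited table of the same comparison, 7 of the 10 genes were higher and 2 lower at an adjusted p under 0.05, against 37.6% and 38.6% of its 12656 genes. The log2 fold changes in the authors' deposited table differed from those given here by at most 0.0125 for these 10 genes.

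The promoter windows shown above set the sequence beside the changes. 8 of the 10 genes had a window in the RefSeq table, all but Zmat3 and Trp53inp1. A p53 consensus element as defined above, searched on both strands, was found in the windows of 6 of 8854 tested genes (0.0678%), Cdkn1a and Ccng1 among them. Of these 6 genes, Cdkn1a (3.15) and Gtse1 (1.11), a G2 and S phase protein that binds p53, were higher; Ccng1 (-0.79) and the ribosomal protein paralog Rps27l (-0.32) were lower; and Mthfd1 (0.02) and Calhm2 (-0.12) did not pass the test. Genes with this element near a start site were thus found on both sides of 0. Counted from the start site, the element lies at -51 to -32 in the Cdkn1a window and at -195 to -176 in the Ccng1 window. Single p53 decamers with no letter off were found in 5 of the 8 genes, against 8.09% of tested genes with a window. The 5 were Cdkn1a, Mdm2, Ccng1, Gadd45a and Sesn1, from both groups of targets.

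TGACGTCA was found at -166 to -159 in the window of Btg2 and at -62 to -55 in that of Plk2, and 3.79% of all tested genes with a window held it. The motifs TGANTCA, of AP-1 factors, and TGATGNAA, of ATF4 with C/EBP factors, were searched on both strands and were in no window of the 8 genes, against 6.22% and 2.51% of tested genes. Binding was not measured, and elements outside these 300 bases were not searched.

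Close relatives of the 10 genes show whether a family moved as a whole. Of 16 relatives measured, 11 were higher (background 38.3% of tested genes), 2 lower (background 40.0%) and 3 did not pass the test. Their median log2 fold change was 0.42, against -0.01 over all tested genes. On removal of the length trend 9 were higher and 4 lower (background 35.3% and 38.9%). With median centring 1 was lower (background 4222 of 11931 tested genes). All 3 GADD45 genes rose: Gadd45b, the family member induced by NF-kB and TGF-beta, by 2.55 ± 0.05, and Gadd45g by 0.63 ± 0.11 (log2 fold change, SE, n = 3 each), beside 1.45 ± 0.13 for Gadd45a. Gadd45b was at 154 ± 4.38 CPM in LP-184 libraries and 26.3 ± 1.95 CPM in DMSO libraries (SD, n = 3 each).

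The cyclin G genes went opposite ways. Ccng2, a FOXO target known for its induction in growth arrest, was at 142 ± 1.15 CPM in LP-184 libraries and 57.3 ± 0.87 CPM in DMSO libraries (SD, n = 3 each). It rose by 1.31 ± 0.04 on the log2 scale (SE, limma adjusted p = 5.9e-26). The log2 CPM of Ccng2 minus that of Ccng1 was 0.86, 0.92 and 0.86 in LP-184 replicates 1 to 3, against -1.16, -1.20 and -1.29 in DMSO replicates 1 to 3. The difference was positive in every LP-184 library and negative in every DMSO library, a shift of 2.10 on average (exact permutation test, two-sided, p = 0.1, the smallest that 3 against 3 can give). Both genes already separated the groups, in opposite directions, so the test could give no other value.

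Members of the other families had changes of different size. Where a target and its relative both passed the test, the signs were opposite for Phlda3 with Phlda2 and for Plk2 with Plk4. Cdkn1b, which encodes the p21 relative p27, was at 123 ± 2.34 CPM in LP-184 libraries and 127 ± 1.61 CPM in DMSO libraries (SD, n = 3 each). Its log2 fold change, -0.05 ± 0.03, did not pass the test (SE, limma adjusted p = 0.20). On removal of the length trend Cdkn1b was lower, at -0.39 (limma adjusted p = 9.7e-10). Sesn2, the sestrin known as an ATF4 target, rose by 1.87 ± 0.17 and Sesn3 by 0.16 ± 0.06, against 0.50 for Sesn1. Plk3, a stress-inducible polo-like kinase, rose by 1.37 ± 0.06 and the mitotic kinase Plk1 by 0.50 ± 0.03, while Plk4, the kinase of centriole duplication, fell by 0.17 ± 0.04 (SE, n = 3 each). Mdm4, the partner of Mdm2 that masks p53, was at -0.45 ± 0.06 (SE, limma adjusted p = 6.7e-08). With its span of 71.1 kb, it was at 0.06 on removal of the length trend. Btg1 rose by 0.20 ± 0.02, with a value of -0.16 once the length trend was removed, and Btg3 was at -0.05 ± 0.05 and did not pass. Phlda2 rose by 0.34 ± 0.05 and Phlda1 was at 0.04 ± 0.05 and did not pass (log2 fold change, SE, n = 3 each). On removal of the length trend Phlda2 was at 0.08 and did not pass (limma adjusted p = 0.15), and Phlda1 was lower, at -0.23 (limma adjusted p = 0.00048). Zmat2 rose by 0.51 ± 0.05 and Trp53inp2 by 0.75 ± 0.15 (log2 fold change, SE, n = 3 each).

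**Figure D4:**
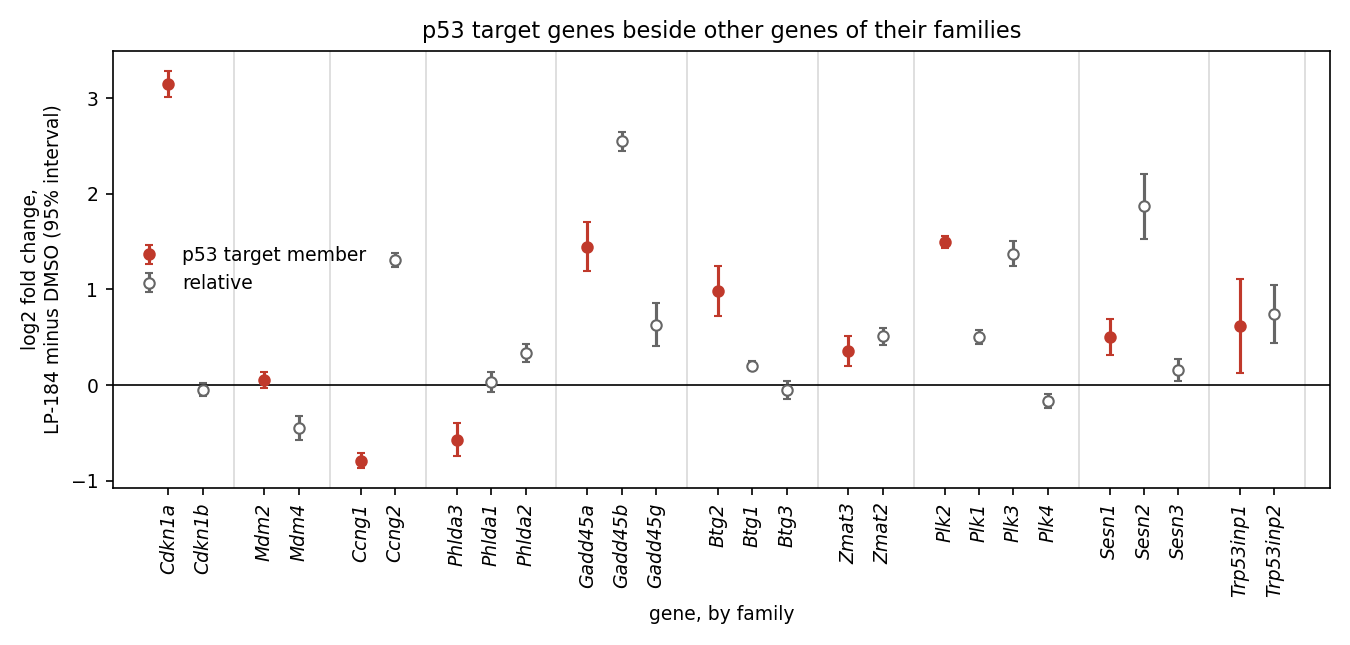
Log2 fold change, LP-184 minus DMSO, with 95% intervals (vertical axis) for the 10 p53 targets (red) and their relatives (open), family by family. Ccng1 (-0.79) and Ccng2 (1.31) lie on opposite sides of 0, and Gadd45b (2.55) lies above Gadd45a (1.45).

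The p53 gene itself was expressed. Trp53 was at 29.8 ± 1.20 CPM in LP-184 libraries and 17.3 ± 0.60 CPM in DMSO libraries (SD, n = 3 each), with log2 CPM of 4.97, 4.88 and 4.86 in LP-184 replicates 1 to 3, against 4.06, 4.15 and 4.15 in DMSO replicates 1 to 3. On the log2 scale it rose by 0.78 ± 0.08 (SE, limma adjusted p = 2.3e-11), and by 0.46 when the length trend was taken out. Reads of a gene do not show whether it gives a working protein. Of 19 p53 family and regulator genes, 5 were higher and 11 lower (background 38.3% and 40.0%). With the length trend removed 10 were higher and 5 lower (background 35.3% and 38.9%). The damage kinase gene Atr fell by 1.87 ± 0.08, Hipk2, a kinase that phosphorylates p53, had a log2 fold change of -1.65 ± 0.13 (-0.01 with the length trend removed, for a span of 182 kb), and Sirt1, a deacetylase of p53, rose by 1.31 ± 0.04 (SE, n = 3 each). The paralogs Trp63 and Trp73 were not analysed here.

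In 3 wider lists of p53 targets, genes were called in both directions, as over all tested genes (38.3% higher, 40.0% lower, 78.3% in either direction). Of 12 targets of cell death, 6 were higher, 2 lower and 4 did not pass; the median log2 fold change was 0.06. Perp, a desmosomal death effector, rose by 0.59 ± 0.02, the inflammasome protease Casp1 fell by 1.84 ± 0.28 and Apaf1, the core of the apoptosome, had a value of -0.62 ± 0.10 (log2 fold change, SE, n = 3 each). Casp1 was low in both groups, at 0.74 ± 0.12 CPM in LP-184 libraries and 2.92 ± 0.71 CPM in DMSO libraries (SD, n = 3 each). When the length trend was removed 2 of the 12 were higher and 3 lower (background 35.3% and 38.9%). Apaf1, which spans 93.5 kb, then had a value of 0.14. Of 7 targets of DNA repair, 4 were higher and 2 lower: Xpc, the lesion sensor of excision repair, rose by 1.00 ± 0.11 and its pathway nuclease Ercc5 by 0.75 ± 0.12, while Polh, a translesion polymerase, fell by 1.02 ± 0.06. Of 17 targets of metabolism and signalling, 10 were higher and 5 lower, with a median of 0.30: Fdxr, ferredoxin reductase, rose by 1.42 ± 0.09, Sesn2 rose as given above, and Fbxw7, a ubiquitin ligase receptor, had a value of -1.57 ± 0.16 (-0.09 with the trend removed, for its 164 kb).

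Cell cycle genes that p21 is known to lower, by keeping RB family complexes on their promoters, were mostly higher after LP-184. Of 26 such genes, 20 were higher, 3 lower and 3 did not pass (background 38.3% higher, 40.0% lower), and their median log2 fold change was 0.27, against -0.01 for all tested genes. When the length trend was removed 10 were higher and 8 lower (background 35.3% and 38.9%), and the median was -0.01. Kif20a, a mitotic kinesin, rose by 1.19 ± 0.03, the replication helicase gene Mcm2 by 0.73 ± 0.03 and the mitotic kinase gene Aurkb by 0.62 ± 0.03 (log2 fold change, SE, n = 3 each).

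Among 14 binding partners of p21 and RB family genes, 4 were higher and 6 lower (background 38.3% and 40.0%). With median centring 7 were higher (background 5195 of 11931 tested genes). With the length trend removed 3 were higher and 9 lower (background 35.3% and 38.9%). Ccnd1, which encodes the G1 cyclin D1, was at 298 ± 7.86 CPM in LP-184 libraries and 898 ± 9.98 CPM in DMSO libraries (SD, n = 3 each), a fall by 1.59 ± 0.02 (SE) on the log2 scale in a gene of 9.99 kb. Rb1, the gene of the retinoblastoma protein, with a span of 142 kb, was at 0.62 ± 0.10 CPM in LP-184 libraries and 7.21 ± 0.52 CPM in DMSO libraries (SD, n = 3 each). It fell by 3.34 ± 0.23 (SE), and by 2.07 with the length trend removed. Cdk6, a kinase partner of cyclin D1 with a span of 190 kb, was at -1.62 ± 0.06 (SE) and, without the trend, at 0.07.

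Stress lists give the setting for the stress-shared targets. Of 16 genes of the ATF4-CHOP integrated stress response, 10 were higher and 6 lower (background 38.3% and 40.0%), and the median log2 fold change was 0.58. With median centring 3 were lower (background 4222 of 11931 tested genes). With the length trend removed 9 were higher and 4 lower (background 35.3% and 38.9%), and the median was 0.33. The transcription factor genes Ddit3 (3.64 ± 0.07) and Atf3 (3.52 ± 0.05) and the phosphatase subunit gene Ppp1r15a (2.73 ± 0.06; log2 fold change, SE, n = 3 each) rose most. Of 23 immediate early genes, 10 were higher and 11 lower (background 38.3% and 40.0%), and the median was -0.07. Removal of the length trend left 9 higher and 13 lower, with a median of -0.36. On the deposited values the nuclear receptor gene Nr4a1 rose by 1.87 ± 0.11 and Klf4 by 1.68 ± 0.09, while Klf2 fell by 1.81 ± 0.09.

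**Figure D5:**
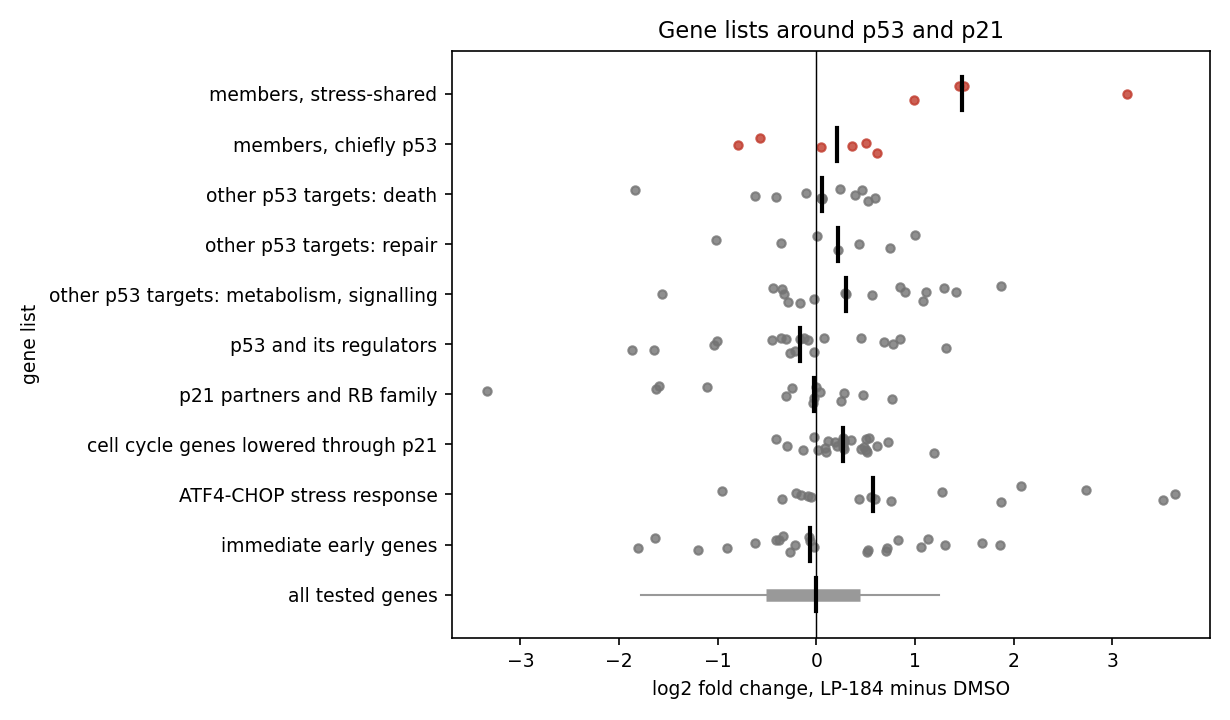
Log2 fold change, LP-184 minus DMSO (horizontal axis), of each tested gene (points) in 10 lists, with the list median as a black bar. The lowest line gives all tested genes, with the median (-0.01), a thick bar from the 25th to the 75th percentile and a thin line from the 5th to the 95th (-1.78 to 1.25); the 4 stress-shared targets have a median of 1.47 and the 6 chiefly p53 targets one of 0.21.

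The genes whose change per library was most like that of Cdkn1a were found by the root mean square difference in log2 CPM. Each gene was taken from its DMSO mean, over 6 libraries and 9640 genes. These were the tested genes with a DMSO mean log2 CPM of 2 or more, with predicted and unnamed genes left out. The nearest 5 were Suox, the mitochondrial sulfite oxidase gene (0.11), Hexim1, an inhibitor of the elongation kinase P-TEFb (0.15), Nppb, the precursor of B-type natriuretic peptide (0.20), Apol9a, of the apolipoprotein L family (0.20), and Rab15, a small GTPase of endosomes (0.27). They rose by 6.99-fold (Rab15) to 10.7-fold (Apol9a). Apol9a has a close paralog, so its read assignment is uncertain. With 6 libraries in 2 groups, this measure compares chiefly the size of the change between the groups.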

How the data were processed

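The authors deposited log2 CPM (log2 counts per 1000000 reads) per gene and library, and a table of log2 fold changes with p-values and adjusted p-values from a test not named in the sources used here. Per the submitters' processing notes, the tools included edgeR, featureCounts (Subread 2.0), STAR 2.7 and fastp; the notes list mm10 beside hg38 and no settings. Columns headed as controls were matched by number to the DMSO libraries. The read totals behind the CPM were scaled. They were 1.007 to 1.016 times the reads over the genes in LP-184 libraries and 0.984 to 0.994 times in DMSO libraries. 0 reads has the same log2 value (-3.34) in every library, so a prior of 1.84 to 2.25 reads, scaled to the library, was added, which understates changes of low genes; with it removed, 100% of values were whole reads (tolerance 1e-06 reads).

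Genes that reached a log2 CPM of 0 in 3 or more libraries were tested with limma 3.58.1 in R 4.3.3 (variance trend, two-sided, Benjamini-Hochberg over 11931 genes, threshold 0.05); the fit was tested on simulated data. A positive log2 fold change means higher with LP-184. Spans and exons come from GENCODE M21 (GRCm38), to which 95.9% of genes matched by symbol; promoters come from RefSeq (GRCm38.p6). The members, lists and their split were chosen with earlier results of these data known. Outside the 10 targets, named genes are all relatives, Trp53, the 3 largest called changes of a list and the genes with a p53 element; Cd79a was named after its values were seen. Alternatives were other scalings, pseudocounts, filters, variance models and thresholds, voom on recovered reads, each library left out, a replicate block and removal of the length trend. Python 3.11.15 with pandas 2.3.3 was used for summaries.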

Additional observations from a re-analysis of the deposited data

How the results depend on the processing

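Over 18 alternatives the count of the 10 p53 targets that were higher stayed between 6 and 8 and that of targets lower between 2 and 3, and 172 of 179 values of single targets kept their direction and side of the threshold. The exceptions were Mdm2 with median centring (0.14, past the threshold) and with the length trend removed (-0.14, past the threshold in the other direction), and Trp53inp1, which did not pass at an adjusted p under 0.01, without the variance trend, with the length trend removed (0.35), without LP-184 replicate 1 (0.54) and without DMSO replicate 2 (0.36). Trp53inp1 was not tested under the stricter filter. The causes were not tested. The median log2 fold change of the 10 targets, 0.56, was 0.65 with median centring, 0.74 with quantile normalization, 0.46 with log2(CPM + 1) and 0.46 to 0.65 with each library left out, against an SD of 0.06 between libraries of a group in the median log2 CPM of the targets. Genes called among all tested numbered 9341, and 8466 to 9567 over the alternatives. The counts of the lists moved by over 1.5 times in 16 of 504 values, 7 of them with the length trend removed. Same-numbered libraries did not deviate together (r of -0.02 to -0.01 over genes), so the numbers were not taken to pair them; with the replicate block 9291 genes were called, and 7 targets were higher and 2 lower. Depth limits Trp53inp1, with 28 to 76 reads per library.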
